A study of Mus musculus with 9 samples.

Results

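Genes for mitochondrial ribosomal proteins were examined in RNA of sorted splenic regulatory T cells (Treg cells) from 5 control and 4 Esrrg-targeted mice. They were taken as the rows of the count table whose symbol is Mrpl or Mrps followed by a number, with or without a final a or b. The rule found 76 of 26683 genes, 48 with a large subunit symbol (Mrpl) and 28 with a small subunit symbol (Mrps). It left out 5 rows with similar symbols, Mrps18c and the pseudogenes Mrpl23-ps1, Mrpl48-ps, Mrps36-ps1 and Mrps36-ps2. Controls (WT) were B6N.Foxp3YFP-Cre mice and knockouts (KO) EsrrgNf/f.Foxp3YFP-Cre mice. All 9 animals were labelled as females of 2 to 3 months, and 1 library was made per mouse. Both groups carry a Cre recombinase and yellow fluorescent reporter driven by the Foxp3 gene. This design is meant to limit deletion to cells that express Foxp3, which these data could not check. The knockouts carry in addition a floxed Esrrg gene, whose product, a nuclear receptor of the estrogen-related family, is known to drive genes of oxidative metabolism. The title names of the libraries begin differently in the groups, and a difference of colony cannot be told apart from genotype.

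Mitochondria translate the few proteins encoded by their own genome on a dedicated ribosome, whose RNA is mitochondrial and whose proteins are all encoded in the nucleus, made in the cytosol and imported. Some of these proteins descend from bacterial ribosomal proteins, and others were added in mitochondria. Every product of this ribosome in mammals is a subunit of the oxidative phosphorylation complexes, and Treg cells are known to rely on oxidative metabolism. Symbols do not always follow structure. The products of Mrps30 and Mrps18a sit in the large subunit, and that of Mrps36 is now counted with the oxoglutarate dehydrogenase complex.

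Total counts ran from 15269014 to 17425634 per library. Esrrg had 0 counts in every library, so the labels could not be checked with the targeted gene, while Foxp3 lay between 533 and 598 CPM (counts scaled to library size with a trimmed-mean factor) in WT and between 535 and 601 CPM in KO. Xist had 27 counts in KO 4 and 27355 to 35693 elsewhere, although all mice are labelled female. Immunoglobulin genes took 0.798% of counts in KO 4 and 0.296% in KO 1, against 0.101 to 0.158% elsewhere. Results are therefore also given without KO 1 and KO 4. In bulk RNA, fewer cells of a type and less RNA per cell cannot be told apart.

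The mitochondrial ribosomal protein genes were expressed in all libraries, with 1 exception. Mrpl53, a large subunit gene, had 0 to 3 counts per library and did not pass the expression filter. It overlaps Gm42688 on its own strand and Ccdc142os on the other. The other 75 genes had between 21 and 2035 counts in each library. Together the 76 genes took 0.189 to 0.203% of counts in WT and 0.202 to 0.213% in KO. The highest WT library was WT 2 at 0.203% (95% Wilson interval 0.201 to 0.205) and the lowest KO library was KO 2 at 0.202% (0.1995 to 0.204), counting error only. These shares overlap.

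Scaled to library size, the summed level was slightly higher in KO. It was 1927, 2029.97, 1933, 1969 and 1920.3 CPM in WT 1 to WT 5, and 2055.5, 2046, 2050.5 and 2101 CPM in KO 1 to KO 4. Every KO library lay above every WT library, with WT 2 close below KO 2. The means were 1956 ± 45.6 CPM (SD, n = 5) and 2063 ± 25.6 CPM (SD, n = 4), a difference of 5.49%. As a mean of log2 CPM over the 75 genes, which gives each gene equal weight, the groups overlapped, since WT 2 (4.56) lay above KO 2 (4.55) and KO 3 (4.55). This level is a summary of genes chosen with earlier results known and carries no test.

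**Figure D1:**
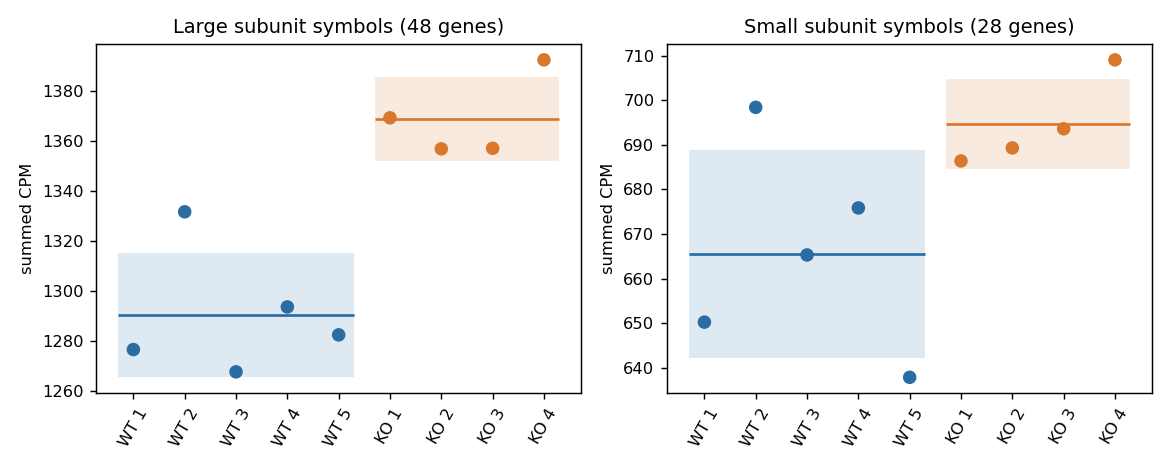
Summed CPM of the 48 large subunit genes (left) and the 28 small subunit genes (right) in each library; lines are group means, shaded bands 1 SD, and the axes do not start at 0. For large subunit genes all KO points lie above all WT points, while for small subunit genes WT 2 lies above KO 1, KO 2 and KO 3.

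Large subunit genes summed to 1290.4 ± 24.9 CPM in WT and 1369 ± 16.7 CPM in KO, and small subunit genes to 666 ± 23.4 and 695 ± 10.1 CPM. The groups did not overlap for the large subunit, with WT from 1268 (WT 3) to 1332 (WT 2) and KO from 1357 (KO 2) to 1392 (KO 4). For the small subunit they did, because WT 2 stood at 698 CPM between KO 3 (694) and KO 4 (709). For the balance between the subunits the groups overlapped. Large subunit genes exceeded small subunit genes in mean log2 CPM by 0.24 ± 0.026 in WT and 0.27 ± 0.030 in KO. The difference between groups, 0.032, was slightly above the SD within either group. WT 5 (0.28) lay above KO 3 (0.25) and KO 4 (0.23). When Mrps30 and Mrps18a were counted with the large subunit and Mrps36 with neither, the excess was 0.16 ± 0.027 in WT and 0.18 ± 0.023 in KO. The difference between groups was then 0.011, less than the SD within either group.

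Most genes of the set had a positive fold change and few passed the test singly. Of the 75 tested genes, 63 (84.0%) had a positive log2 fold change (KO over WT), against 51.5% of all 12738 tested genes. The median was 0.10 for the set and 0.0052 for all tested genes. By edgeR's quasi-likelihood test with Benjamini-Hochberg adjustment over all tested genes, 2 of the 75 passed 0.05, both higher in KO, which is 2.67%. Over all tested genes 3.28% were called, 1.4% higher and 1.88% lower in KO. The share of called genes in the set was therefore near this background. In simulated counts the test recovered only 10% of genes changed 1.2-fold, and every fold in the set was smaller. DESeq2 also called 2 members, both higher in KO, with 6.58% of the genes it tested called, 3.29% in each direction. At an adjusted p of 0.10 edgeR passed 3 members, all higher, where 7.7% of all tested genes passed and 3.49% did so with a higher level in KO. At an unadjusted p of 0.05, 18 were higher (24.0%, against 11.1% of all tested genes) and 0 lower (against 10.5%). The groups did not overlap for 7 genes, all higher in KO (9.33%, against 4.15%), and 0 were lower without overlap (against 4.92%).

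Medians were positive in both subunits and in both evolutionary classes, and differences between these classes were not tested. For large subunit genes 42 of 47 had a positive fold change with a median of 0.11, and 1 was called. For small subunit genes 21 of 28 were positive with a median of 0.07, and 1 was called. Genes with a bacterial relative were positive in 41 of 45 cases (median 0.10) and mitochondria-specific genes in 20 of 27 (median 0.07), while Mrpl55, Mrps28 and Mrps36 were not classed. Leaving out the symbols whose products lie outside the small subunit, 20 of 25 small subunit genes were positive with a median of 0.09.

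**Figure D2:**
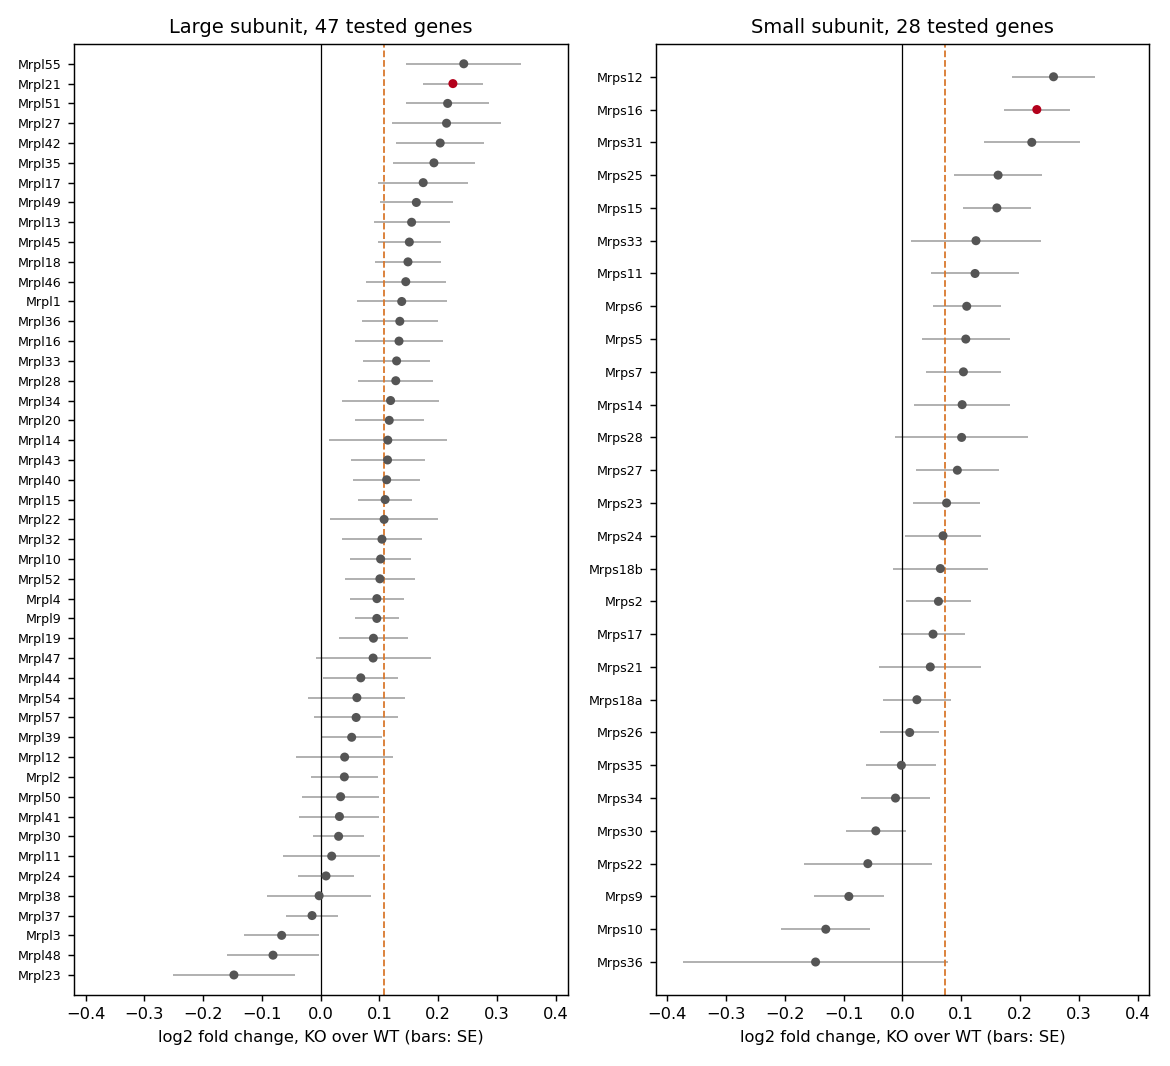
Log2 fold change (KO over WT) of each tested gene with its standard error (bars), large subunit left and small subunit right; red points passed an adjusted p of 0.05 and dashed lines mark the medians (0.11 and 0.07). Points right of 0 number 42 of 47 and 21 of 28, and Mrpl21 and Mrps16 are red.

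Mrpl21 encodes a large subunit protein related to bacterial L21 (mm10, chromosome 19, 3282901 to 3292837, plus strand). It stood at 20.3, 20.8, 19.6, 20.1 and 19.9 CPM in WT 1 to WT 5 and at 22.9, 23.7, 23.9 and 23.7 CPM in KO 1 to KO 4. The WT libraries lay within a narrow band below all KO libraries. Mrpl21 rose. The WT mean was 20.1 ± 0.442 CPM (SD, n = 5) and the KO mean 23.5 ± 0.468 CPM (SD, n = 4). Its log2 fold change was 0.22 with an SE of 0.05 (edgeR adjusted p = 0.0368). It passed in 2 of the 9 fits that left out 1 library, with adjusted p between 0.0313 and 0.238 over all 20 alternatives, and its log2 fold change stayed between 0.21 and 0.24. Its start region overlaps that of Ighmbp2, a helicase gene read from the opposite strand, which was at 28.7 ± 2.11 and 28.98 ± 0.831 CPM (log2 fold change 0.02, edgeR adjusted p = 0.912). Downstream of it lies Cpt1a (3322334 to 3385733), which encodes the enzyme of fatty acid import into mitochondria and changed by 0.46 (edgeR adjusted p = 0.00682).

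Mrps16, a small subunit gene whose product is related to bacterial S16 (chromosome 14, 20389304 to 20393634, minus strand), was the other gene past the threshold. Its values were 30.2, 33.0, 30.6, 32.5 and 30.0 CPM in WT 1 to WT 5 and 40.0, 34.5, 36.6 and 35.2 CPM in KO 1 to KO 4. KO 1 was the highest library, and the lowest KO value lay above the highest WT value. Mrps16 rose, with means of 31.2 ± 1.40 in WT and 36.6 ± 2.41 CPM in KO (log2 fold change 0.23 ± 0.06, edgeR adjusted p = 0.0482), and it passed in 2 of 9 fits that left out 1 library. Over the alternatives its adjusted p ran from 0.0277 to 0.259. No annotated gene overlaps it, and 0 of the 6 tested genes lying wholly within 150 kb on either side were called. Over all tested genes 3.28% were called. The log2 fold changes of these neighbours ran from -0.21 (Nudt13, edgeR adjusted p = 0.198) to 0.06 (Anxa7, adjusted p = 0.379).

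Mrps12, related to the bacterial decoding-site protein S12 (chromosome 7, 28739641 to 28741820, minus strand), had the largest positive log2 fold change of the set without passing. It lay at 16.1, 17.7, 16.9, 15.7 and 14.5 CPM in WT and at 19.9, 18.6, 19.5 and 19.4 CPM in KO, with no overlap. The log2 fold change was 0.26 ± 0.07 (edgeR adjusted p = 0.0643), and it passed in 1 of 20 alternatives, the fit without WT 2, with adjusted p between 0.0404 and 0.326 over the 20. Its divergent neighbour Sars2, which encodes the mitochondrial seryl-tRNA synthetase and starts 172 bases away, was at -0.04 (edgeR adjusted p = 0.826). Mrpl51, a mitochondria-specific protein gene, stood at 16.7, 19.04, 16.7, 19.8 and 19.3 CPM in WT and at 21.1, 20.5, 20.8 and 22.5 CPM in KO (0.22, adjusted p = 0.109). The remaining genes without overlap were Mrpl45, whose product anchors the ribosome to the inner membrane (28.8 ± 1.44 and 32.01 ± 1.34 CPM, edgeR adjusted p = 0.133), Mrps15 (30.5 ± 1.68 and 34.1 ± 2.04 CPM, adjusted p = 0.140) and Mrpl9 (60.1 ± 1.18 and 64.2 ± 1.40 CPM, adjusted p = 0.166).

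**Figure D3:**
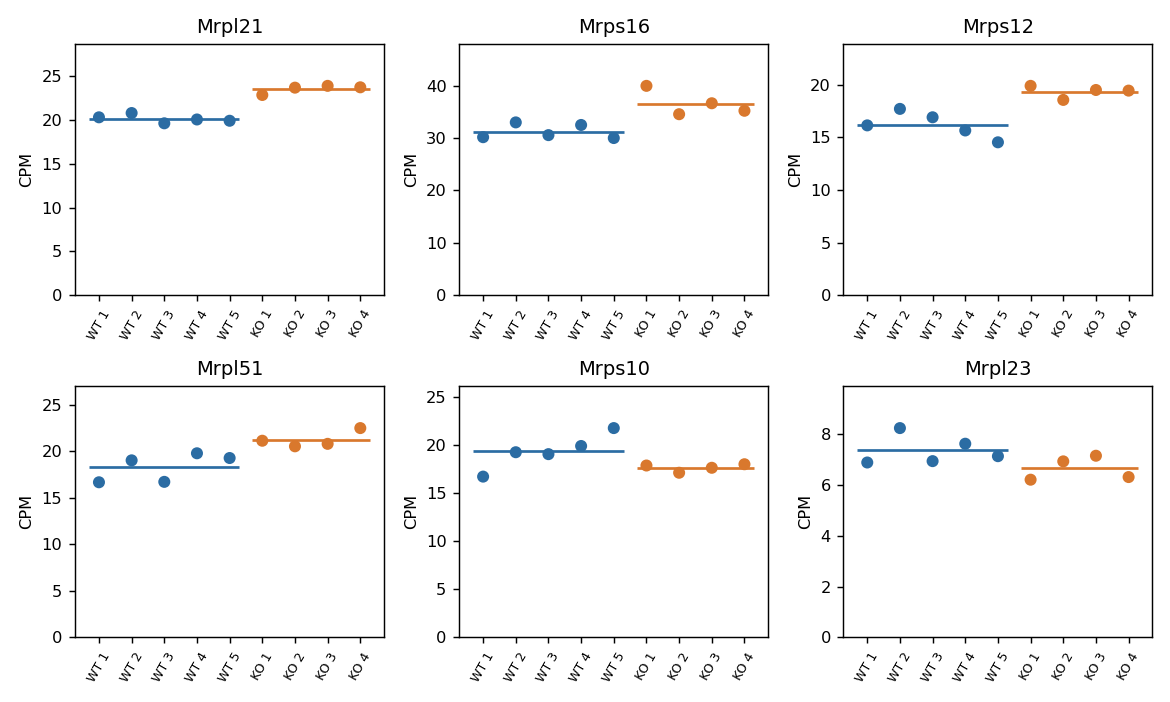
CPM of 6 genes in each library, with lines at group means and axes from 0. Mrpl21, Mrps16, Mrps12 and Mrpl51 show no overlap between the groups, and in Mrps10 and Mrpl23, which have negative fold changes, the groups overlap.

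Among the other genes with the smallest p, the groups overlapped and adjusted p stayed between 0.139 and 0.152. They were Mrpl35 (log2 fold change 0.19), Mrpl42 (0.20), Mrps31 (0.22) and Mrpl18 (0.15). Mrpl55 had the largest positive value in the large subunit, 0.24 ± 0.10, with KO 3 (10.8 CPM) below WT 2 (11.7 CPM) and WT 3 (11.3 CPM), and an edgeR adjusted p of 0.175.

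Negative fold changes were found for 12 genes, and 0 of them passed. Mrps36 was the lowest of the tested genes in CPM and was at -0.15 ± 0.23, with 2.42 ± 0.206 CPM in WT and 2.18 ± 0.765 CPM in KO (edgeR adjusted p = 0.743). Its 2 pseudogenes in the table make its count uncertain. Mrpl23, whose bacterial relative lies at the exit of the peptide tunnel, stood at 6.9, 8.2, 6.9, 7.6 and 7.1 CPM in WT and at 6.2, 6.9, 7.2 and 6.3 CPM in KO (-0.15 ± 0.10, edgeR adjusted p = 0.429). Mrps10, a head protein of the small subunit, had 4 KO values of 17.1 to 18.0 CPM, below 4 WT libraries (19.1 to 21.8 CPM) and above WT 1 (16.7 CPM), with a log2 fold change of -0.13 ± 0.08 (edgeR adjusted p = 0.337). Mrps9, related to a bacterial protein of the same subunit head, was at -0.09 ± 0.06 (adjusted p = 0.393).

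The sequences before the starts of these genes are shown because the factors that are known to control nuclear genes for mitochondria, among them NRF1, ETS factors, YY1 and the estrogen-related receptors, bind there. RefSeq windows (GRCm38.p6, 250 bases before to 50 after each start) were found for 67 of the 76 genes. The windows of the 2 called genes, of Mrps12 and of Mrps18b, which followed the rest of the set closely across libraries, are given 5′ to 3′, with matches to any of the 7 motifs in capitals.
Mrpl21 (chr19:3282792-3283091, plus strand): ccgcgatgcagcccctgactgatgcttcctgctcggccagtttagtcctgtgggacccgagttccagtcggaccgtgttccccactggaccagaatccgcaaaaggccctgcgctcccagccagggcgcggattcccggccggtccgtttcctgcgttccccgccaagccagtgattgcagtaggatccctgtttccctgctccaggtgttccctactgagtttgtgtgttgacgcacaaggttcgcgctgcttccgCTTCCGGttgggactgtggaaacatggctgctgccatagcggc
Mrps16 (chr14:20393585-20393884, minus strand): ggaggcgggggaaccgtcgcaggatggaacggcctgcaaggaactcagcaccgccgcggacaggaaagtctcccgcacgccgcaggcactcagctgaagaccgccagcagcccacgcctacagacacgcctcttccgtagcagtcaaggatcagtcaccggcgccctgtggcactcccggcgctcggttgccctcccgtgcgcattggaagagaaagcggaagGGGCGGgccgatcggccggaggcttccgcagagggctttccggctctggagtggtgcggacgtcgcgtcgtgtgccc
Mrps12 (chr7:28741772-28742071, minus strand): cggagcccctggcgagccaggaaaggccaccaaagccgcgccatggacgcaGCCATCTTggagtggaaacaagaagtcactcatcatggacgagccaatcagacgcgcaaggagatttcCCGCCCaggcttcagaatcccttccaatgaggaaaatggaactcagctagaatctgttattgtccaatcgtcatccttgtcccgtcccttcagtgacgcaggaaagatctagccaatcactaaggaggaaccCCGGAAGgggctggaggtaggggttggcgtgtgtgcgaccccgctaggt
Mrps18b (chr17:35916391-35916690, minus strand): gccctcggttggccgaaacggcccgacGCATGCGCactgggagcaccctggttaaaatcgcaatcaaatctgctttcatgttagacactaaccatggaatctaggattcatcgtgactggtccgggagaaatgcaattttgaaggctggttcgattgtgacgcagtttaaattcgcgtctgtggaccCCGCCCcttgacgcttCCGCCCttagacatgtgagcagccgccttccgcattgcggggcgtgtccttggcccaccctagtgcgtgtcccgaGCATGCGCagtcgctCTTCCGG
Mrpl21 holds an ETS match just after the RefSeq start, which lies inside the GENCODE span given for this gene above. The Mrps16 window shown holds an SP1 match just before its start. RefSeq gives Mrps16 2 windows, and an ETS match lies in the one not shown. Mrps12 holds a YY1, an SP1 and an ETS match. In Mrps18b there are 2 NRF1, 2 SP1 and 1 ETS matches.

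Motifs were searched as exact letters on both strands, in any window of a gene, and may overlap. The YY1 letters AAGATGGC were found in 12 of 67 genes of the set (17.9%), against 3.19% of all 27025 genes with a window and 5.57% of the 9086 of these that were tested for expression. ETS letters CCGGAAG were found in 24 (35.8%), against 9.93% and 21.2%, and NRF1 letters GCGCANGC in 22 (32.8%), against 11.2% and 23.1%. SP1 letters GGGCGG occurred in 33 (49.3%), between the shares of all genes (38.2%) and tested genes (68.7%). The E-box CACGTG occurred in 4 (5.97%, against 8.09% and 11.9%) and TATAAA in 5 (7.46%, against 15.7% and 8.10%). The estrogen-related receptor letters TNAAGGTCA had 0 matches in the 67 genes, against 1.43% of all genes and 0.88% of tested genes. A match is not evidence of binding, and a missing match says only that these letters are not in this window.

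Levels were compared between genes as counts per kilobase of annotated exon, scaled to the same sum in each library. On this scale the set ran over a 35.5-fold range in WT. The median gene was at 39.3, with 46.6 for large and 32.7 for small subunit genes. Mrpl52 was highest, at 231 ± 14.6 in WT and 245 ± 15.2 in KO, followed by Mrpl24 (204 ± 11.6 and 203 ± 8.32), Mrpl33 (175 ± 12.5 and 189 ± 10.1) and Mrpl30 (125 ± 2.39 and 127 ± 4.95). In WT the ranges of mean and SD of these 4 large subunit genes did not overlap. At the other end were Mrps25 (6.49 ± 0.479), Mrpl17 (7.36 ± 0.606), Mrpl47 (8.66 ± 0.944) and Mrps36 (9.20 ± 0.844) in WT, where neighbours in this order overlapped within their SD. Mrps25 and Mrpl17 have 6073 and 7605 annotated exon bases. If the cells use shorter forms, their level per length is understated, which was not tested.

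Mrpl12, whose bacterial relative forms the multi-copy stalk of the large subunit, was at 72.2 ± 8.66 in WT and 73.5 ± 3.37 in KO on the same length-scaled measure. The stalk base genes Mrpl10 and Mrpl11 were at 91.0 ± 4.30 and 15.7 ± 1.15 in WT. The paralogues Mrps18a and Mrps18b were at 62.8 ± 2.00 and 33.0 ± 2.45 in WT, so that the paralogue of the large subunit had the higher level. Neither passed the test, with log2 fold changes of 0.02 ± 0.06 (edgeR adjusted p = 0.842) and 0.06 ± 0.08 (adjusted p = 0.677).

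**Figure D4:**
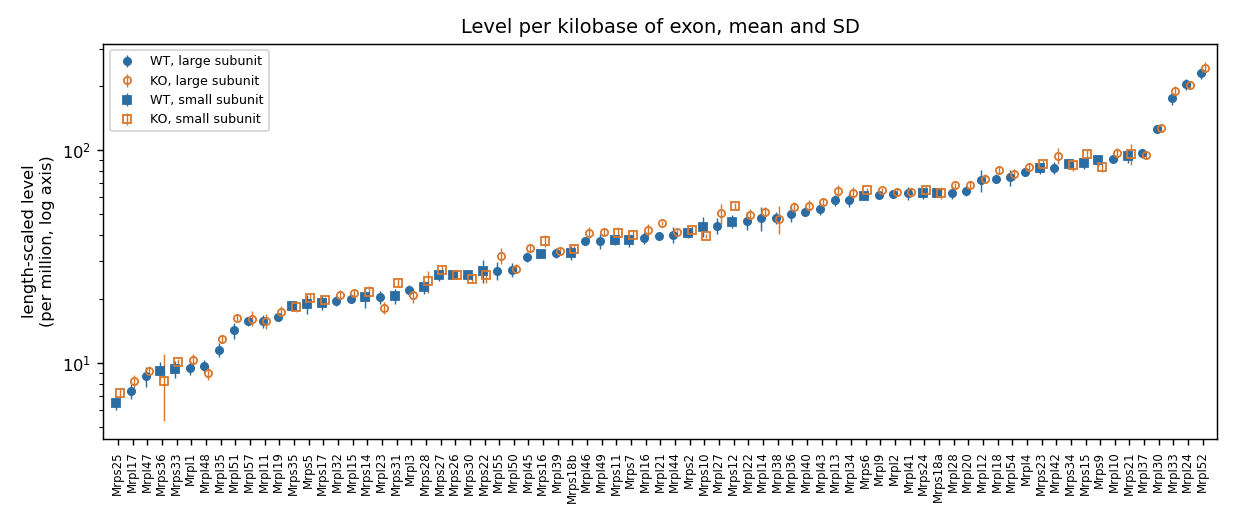
Length-scaled level (log axis) of the 75 tested genes, mean and SD over 5 WT (filled) and 4 KO (open) libraries, ordered by WT. Values run from 6.49 (Mrps25) to 231 (Mrpl52), and WT and KO points lie close together at every level.

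The set varied little between mice. The median SD of log2 CPM within groups was 0.09 for the 75 genes and 0.11 for all tested genes. Members were weakly correlated with each other. After removal of each group's mean, the median Pearson correlation over the 9 libraries was 0.16 for the 2775 pairs of members and -0.0011 for all 81121953 pairs of tested genes. It was 0.12 within the large subunit, 0.23 within the small subunit and 0.16 between them. These values are descriptions, since the libraries share depth, scaling and cell makeup.

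WT 2 carried much of this pattern. In that library 60 of 75 genes lay above the WT mean, by 0.08 on average on the log2 scale, and in KO 4 50 of 75 lay above the KO mean, by 0.04. Without WT 2 the median pair correlation was 0.043. Correlated with the mean of the others, 62 genes had a positive coefficient and 13 a negative one, 10 of these in the large subunit. Mrpl13 (r = 0.88), Mrps18b (0.86) and Mrpl17 (0.85) followed the others most closely. The opposite was measured for Mrpl39 (-0.64), Mrpl44 (-0.61) and Mrpl24 (-0.58). Mrpl24 stood at 123, 110.0, 116, 126.5 and 122 CPM in WT, lowest in WT 2 where most of the set was highest, and at 114, 122, 126 and 119.5 CPM in KO, with a log2 fold change of 0.0090 ± 0.048 (edgeR adjusted p = 0.933).

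**Figure D5:**
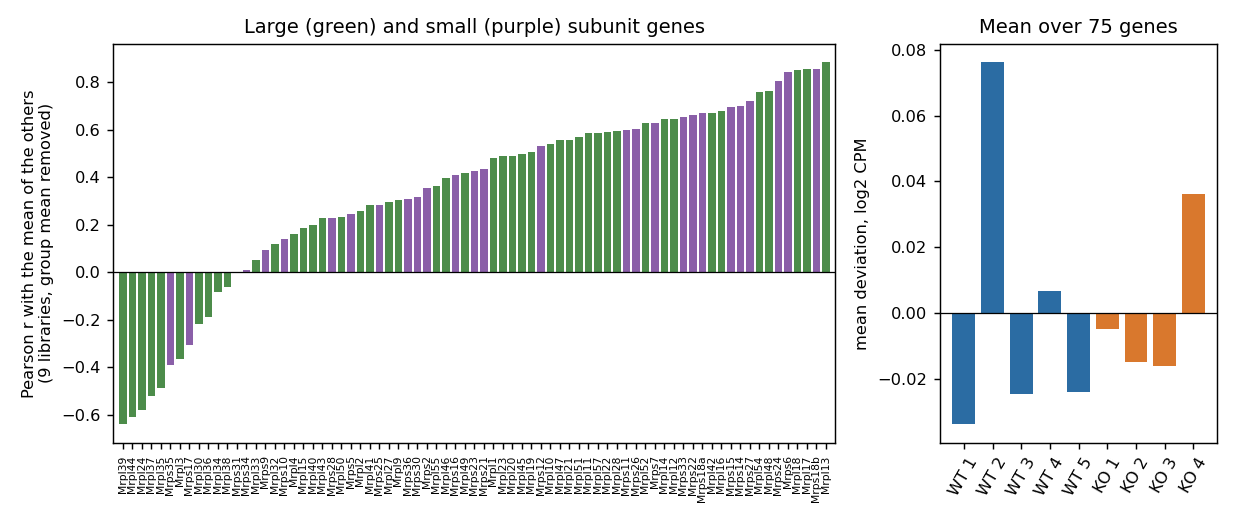
Left, Pearson correlation of each tested gene with the mean of the other 74 over 9 libraries after removal of group means, from -0.64 (Mrpl39) to 0.88 (Mrpl13); right, mean deviation of the 75 genes from the group mean in each library, on the log2 CPM scale. WT 2 (0.08) and KO 4 (0.04) stand highest.

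Markers of other cells differed between libraries in the same direction in part. The 9 plasma cell markers summed to 977 to 1187 CPM in WT and 1087 to 4823 CPM in KO, highest in KO 4 and KO 1, and 1 of 8 tested was called higher. The 7 neutrophil markers summed to 1.88 to 6.91 CPM in WT and 1.86 to 136 CPM in KO, with 0 of 4 called. The 7 macrophage and monocyte markers summed to 20.4 to 69.3 CPM in WT and 24.1 to 119 CPM in KO. No marker of these lists was at 0 in all libraries. WT 2, the WT library with the highest level of the set, had the lowest neutrophil and macrophage sums of its group. Its plasma cell sum (1031 CPM) was above those of WT 4 (1001) and WT 5 (977). Within KO, the summed CPM of the set and the plasma cell, neutrophil and macrophage sums had the same order. From highest to lowest it was KO 4, KO 1, KO 3 and KO 2. The dendritic cell sum had this order too, but the remaining lists did not. B cell and erythroid sums were higher in KO 1 (52.2 and 23.0 CPM) than in KO 4 (45.0 and 12.8 CPM). The CD8 T and NK cell sum was higher in KO 2 (20.87 CPM) than in KO 3 (18.4 CPM). KO 1 and KO 4 hold the most plasma cell, neutrophil and macrophage transcripts. Without these libraries, 60 of 75 genes were still positive, with a median of 0.08, and 0 were called. Of all tested genes 0.908% were then called, 0.346% higher and 0.562% lower in KO. The part of these transcripts in the result was not tested. The 6 Treg markers summed to 4185 to 4407 CPM in WT and 4129 to 4409 CPM in KO.

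Transcript length also moved with the fold changes. The median exon length was 1398 bases for the set and 3122 for all tested genes with a length, and over 4 equal bins of tested genes from short to long the median log2 fold change went from 0.03 to -0.02. The set was above these medians in each bin, at 0.10 for the 49 genes in the shortest, 0.08 for 10 and 0.10 for 10 in the middle bins, and 0.10 for 6 in the longest. With the trend over length removed its median was 0.08, with 61 of 75 positive.

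Other genes of mitochondrial translation had fold changes in both directions, and 0 passed the test. Mitochondrial ribosomal protein genes with other symbols (Mrps18c, Dap3, Ptcd3, Chchd1, Aurkaip1, Gadd45gip1 and Ict1) were positive in 6 of 7 cases, with a median of 0.07 and 0 called. Chchd1 was at 0.11 (edgeR adjusted p = 0.356) and Aurkaip1 at 0.08 (adjusted p = 0.305). Assembly factors and ribosomal RNA enzymes had 15 of 25 positive, a median of 0.02 and 0 called. Their smallest p were those of the assembly factor gene Mettl17 (63.7 ± 3.84 and 58.0 ± 1.05 CPM, -0.14, edgeR adjusted p = 0.140) and of Nsun4, an RNA methyltransferase gene (-0.16, adjusted p = 0.196).

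Translation factors had 10 of 15 positive, a median of 0.02 and 0 called. Tufm, which encodes the elongation factor that delivers aminoacyl-tRNA, was at 39.0 ± 2.93 and 44.1 ± 2.86 CPM (0.18, edgeR adjusted p = 0.136), and the translation GTPase gene Guf1 at -0.13 (adjusted p = 0.185). The 17 mitochondrial aminoacyl-tRNA synthetases had 6 positive, a median of -0.03 and 0 called. Iars2, the gene for the isoleucine enzyme, was at 107 ± 3.56 and 96.1 ± 4.34 CPM with no overlap (-0.15 ± 0.04, edgeR adjusted p = 0.0702). Of 12 mitochondrially encoded genes in the table, 9 were tested, 6 were positive, the median was 0.011 and 0 were called. The large ribosomal RNA gene mt-Rnr2 was at 325 ± 154 and 275 ± 20.8 CPM (-0.24 ± 0.33, edgeR adjusted p = 0.711) and mt-Nd1 at -0.07 (adjusted p = 0.787). Over these 5 lists 73 genes were tested, with 4 higher and 5 lower at an unadjusted p of 0.05, and DESeq2 called 1, Iars2. Over all tested genes these shares were 11.1%, 10.5% and 6.58%, so the counts in the lists are not above the background.

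Many of these genes lie beside others. Of the 76, 40 overlap another annotated gene and 22 have a protein-coding partner that starts close by on the other strand. Mrpl46 and Mrps11 overlap head to head, and were at 0.14 (edgeR adjusted p = 0.237) and 0.12 (adjusted p = 0.359). Of the 21 tested divergent partners 1 was called, where 3.28% of all tested genes were, 1.88% lower in KO. The called gene, Eme2, encodes a nuclease subunit and lies next to Mrps34. Eme2 fell from 31.5 to 24.8 CPM (-0.34, edgeR adjusted p = 0.0106), and Mrps34 was at -0.01 (adjusted p = 0.930). Ndufs6, a complex I gene paired with Mrpl36, was at 0.20 (adjusted p = 0.188) and Mrpl36 at 0.13 (adjusted p = 0.248).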

How the data were processed

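The values are raw read counts by gene symbol, which the authors deposited for 9 libraries in 1 table. Per the labels' protocols, RNA of each mouse was made into libraries with a stranded TruSeq kit. STAR 2.7, DESeq2 and the mm10 build appear in the submitters' processing notes without a role. The counting program, its annotation and its strand setting were not given in the sources used here. Counts of overlapping genes and of close copies are therefore uncertain.

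Samples were grouped by title, and all 9 columns matched 1 sample each. Genes were placed on GENCODE M21 (mm10), all 76 members by symbol. The test was that of edgeR 4.0.16, run in R 4.3.3 (trimmed-mean scaling, default expression filter, robust quasi-likelihood fit), with Benjamini-Hochberg adjustment at 0.05 over 12738 genes. Each SE is the fold change on the log2 scale divided by the root of F. For log2 CPM the prior count was 2. The fit was tested on simulated data. P-values set the difference between groups against the spread between mice within groups, as estimated by the fit. Intervals cover counting error only. Closest libraries differed by a chi-square of 2.34 per degree of freedom, so none was a duplicate.

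The members, gene lists, alternatives and named genes were chosen with earlier results of these data known. Named genes are the called members, the 10 with the smallest p, the 4 highest and lowest by fold change and by level per length, the 3 most and least correlated with the rest, the member left untested, and Mrps18a and Mrps18b. From each related list up to 3 called genes, otherwise the 2 with the smallest p, are named, except 1 gene that is not reported here. Mrpl9, Mrpl10, Mrpl11, Mrpl12, the neighbours and the partner pairs were chosen after their values were seen. Alternatives used DESeq2 1.42.0, limma 3.58.1 and sva 3.50.0.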

Additional observations from a re-analysis of the deposited data

Results flagged for a closer look

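Among 64 groups of values examined for a library far from the others, 2 had one. Chance gives about 1 in 20, so this number is not above chance. Both were in WT 2 and in genes of the set. Mrpl13 was at 29.9 CPM in WT 2 against 25.5 to 26.3 CPM in the other WT libraries, and Mrps18a at 26.1 CPM against 23.7 to 24.3 CPM.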

How the results depend on the processing

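The median log2 fold change of the set kept its sign in every alternative. It was 0.07 with 1 surrogate variable, 0.08 without KO 1 and KO 4, between 0.08 and 0.12 in the 9 fits that left out 1 library, 0.08 with the length trend removed, and 0.07 when that trend used the longest transcript of the full annotation, chosen after seeing the data. The number of called members was less stable. Against 2 as reported it was 1 with upper-quartile scaling, with no scaling factor and with limma-voom, and 0 without the expression filter, with 1 surrogate variable and without KO 1 and KO 4. It was 2 with DESeq2, and 3 at an adjusted p of 0.10. Leaving out 1 library gave 0 to 3, with 0 without WT 1, WT 3, WT 4, WT 5, KO 3 or KO 4, and 3 without WT 2, where Mrps12 was added. Over all tested genes 418 (3.28%) were called, 888 (6.58%) by DESeq2, 118 (0.908%) without KO 1 and KO 4, and 56 (0.44%) with 1 surrogate variable. Leaving out 1 library gave 97 (0.767%, without WT 3) to 697 (5.52%, without WT 2). The share of all tested genes was 3.5% with upper-quartile scaling, 3.26% with no scaling factor, 3.09% with limma-voom and 1.49% without the expression filter. The title number as a replicate block gave 26 calls with 0 members, and the bracketed library number 443 with 0 members, at medians of 0.09 and 0.12. Libraries with the same number did not deviate together, with correlations of -0.07 to 0.10 by title and -0.26 to 0.099 by bracketed number. The related lists had 0 called, 1 by DESeq2, and 0 to 1 leaving out 1 library. The difference between groups in the large minus small subunit level, 0.032, moved by less than its SD of 0.028 in each alternative. The median pair correlation of 0.16 was 0.24 with no scaling factor and 0.30 without removal of group means, and 0.0426 (without WT 2) to 0.188 leaving out 1 library. Among named members, signs changed only for Mrpl24, Mrps36 and Mrps18a, none of which passed. Leaving out 1 library, Mrpl24 lay between -0.0186 (without WT 2) and 0.0338, Mrps36 between -0.389 and 0.0224 (without KO 2), and Mrps18a between -0.0076 (without KO 4) and 0.0597. Mrpl24 was also negative without WT 3 (-0.0045), without KO 3 (-0.0141) and with the bracketed number as a block (-0.0196), and Mrps18a without KO 1 and KO 4 (-0.0014) and with 1 surrogate variable (-0.0129). The cause was not tested.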
